A study of Caenorhabditis elegans with 165 samples.

Results

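The comparison described here sets the replicate 1 RNA-seq libraries of 3 Caenorhabditis elegans strains against replicates 2, 3 and 4 of the same strains. Its members were chosen by the replicate number in the library titles, which gave 3 libraries in 1 group and 9 in the other, all 12 of the RNA-seq libraries with a file. The series lists 165 samples, and 153 ChIP-seq and input samples were not analysed here. N2 is the wild-type laboratory strain, 15eh1 carries a fusion of the X chromosome to chromosome V, and YPT41 carries a fusion of the X chromosome to chromosome II. Each strain gave 4 libraries, 1 of replicate 1 and 3 of the others. All were made from total RNA of whole worms, with no treatment named, and their labels give the same stage, L1-L3 larvae, for both groups. The series text gives L3 larvae only. Nothing in the labels says that the replicates were separate cultures, so the p-values measure only the spread between these samples, which may be technical.

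In the C. elegans hermaphrodite the germline proliferates through larval life, makes sperm late in the last larval stage and then makes oocytes in the adult. The adult intestine secretes vitellogenins, the yolk precursors, and the growing oocyte takes them up through the receptor RME-2. The cuticle is rebuilt at each molt from collagens that differ between stages, and molting genes rise and fall with each larval cycle. Genes on the X chromosome are known to be largely silent in the germline of this species. In RNA from whole animals, more or fewer cells of a type and more or less RNA per cell cannot be told apart.

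The libraries of replicate 1 carried vitellogenin, oocyte, germline, sperm and adult cuticle transcripts at levels far above those of the other 9, and lower levels of neuronal, muscle and ribosomal transcripts and of most furrow and body shape collagens. Of 14070 tested genes, 4719 were higher in replicate 1 (33.5%) and 4468 were lower (31.8%), by edgeR's quasi-likelihood test with strain as a block and a Benjamini-Hochberg adjusted p under 0.05. Together these were 65.3% of the tested genes. With a change of at least 2-fold, 6823 genes were called (48.5%): 3641 genes were higher (25.9%) and 3182 were lower (22.6%). The level of all 3 libraries of replicate 1 lay above all 9 others for 28.0% of tested genes and below them for 19.3%. The median log2 fold change over all tested genes was -0.12. The split was taken up because earlier results of these data had shown replicate 1 apart, so the size of these counts is a description.

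The balance of rises and falls depended on the scaling. Of the called genes, 51.4% were higher with TMM scaling, the method used throughout, against 37.4% with upper-quartile scaling and 41.9% with total counts alone. Upper-quartile scaling moved the median of all genes by -0.42 on the log2 scale and total counts by -0.29. Levels are given as TMM-scaled CPM, the count of a gene relative to the scaled total of its library, and fold changes are log2 of replicate 1 over replicates 2 to 4 with their standard errors. A level of 1 gene is not set against that of another, because the counts are not per length.

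Total gene counts were 10980737 to 13539912 in replicate 1 and 8237095 to 31234047 in the others, where 3 counts correspond to 0.0960 to 0.364 unscaled CPM. The number of genes with a count was 16588 ± 374 (SD, n = 3) against 16440 ± 789 (SD, n = 9), an exact two-sided permutation p of 0.664. Reads without a unique position made up 17.8% ± 1.602 against 18.7% ± 2.88, with an exact permutation p of 0.600. Reads without a feature made up 2.66% ± 0.158 against 3.26% ± 0.546, with an exact permutation p of 0.0727. The first principal component of log2 CPM held 69.5% of the variance and placed the libraries of replicate 1 at -190 to -139.9, the other 9 at 46.0 to 65.6. The second held 10.1% and set YPT41 replicates 3 and 4 and replicate 1 (32.2 to 95.3) apart from the rest (-34.2 to -3.90). The biological coefficient of variation was 0.317 with a term for replicate 1 and 0.731 with the strain alone.

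**Figure D1:**
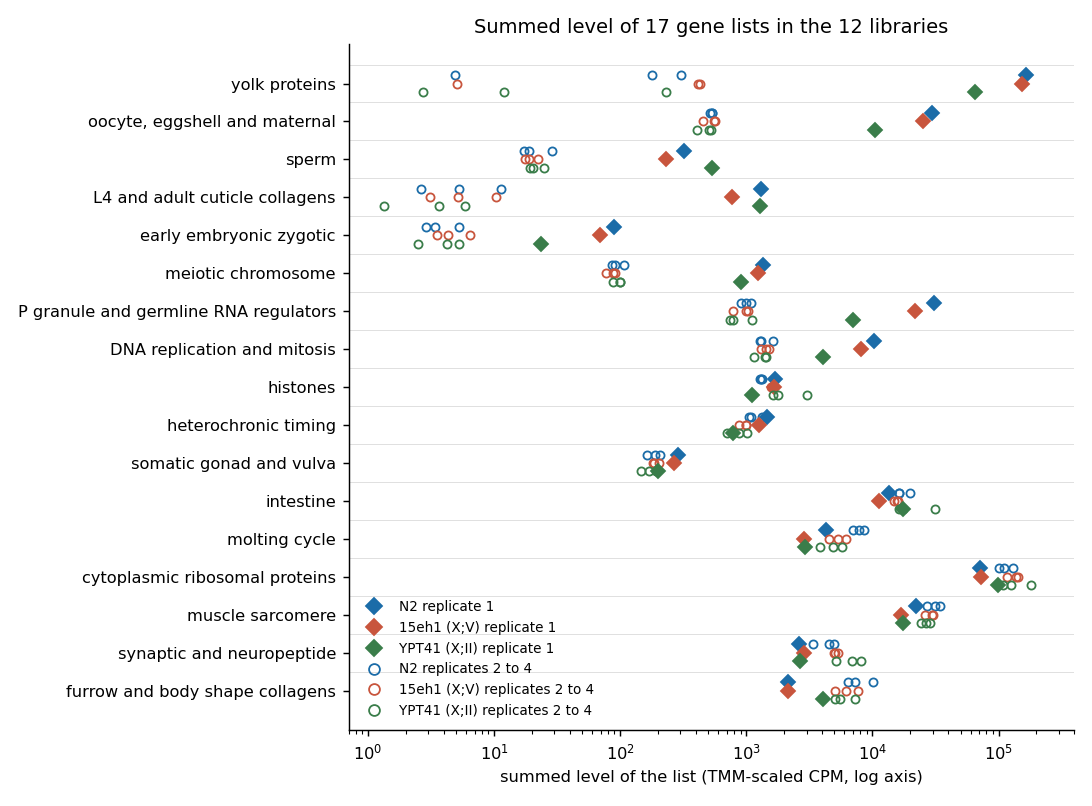
Summed level of each of 17 gene lists (horizontal log axis, TMM-scaled CPM) in the 12 libraries, with filled diamonds for replicate 1 and open circles for replicates 2 to 4, coloured by strain. Yolk proteins sum to between 64707 and 166640 CPM in replicate 1 and to at most 428 in the others, while the neuronal, muscle, ribosomal and furrow collagen lists sit lower in replicate 1.

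All 6 vitellogenin genes were higher in replicate 1. They took up a summed 166640 CPM in N2, 153405 in 15eh1 and 64707 in YPT41, against a lowest of 2.72, a median of 179 and a highest of 428 CPM in the other 9 libraries. The groups did not overlap, and YPT41 stood below the other strains. vit-6, vit-2 and vit-5 took the most counts of all genes in replicate 1, with 4.49%, 3.79% and 1.64% of its gene counts on average. In the other libraries the same genes averaged 0.00752%, 0.00662% and 0.00319%.

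vit-2, a vitellogenin gene on the X chromosome, stood at 53091 CPM in N2, 55426 in 15eh1 and 27853 in YPT41 replicate 1, and at 0.222 to 172 CPM with a median of 59.6 in the other 9. Every library of replicate 1 was above every other library. The log2 fold change was 9.68 ± 1.48 (SE), with an edgeR adjusted p of 8.41e-05. vit-6, the vitellogenin gene on chromosome IV, stood at 68681, 69436 and 26293 CPM in the same order and at 0.463 to 170 CPM (median 69.1) elsewhere. Its log2 fold change was 9.67 ± 1.46, with an edgeR adjusted p of 7.19e-05. vit-5 stood at 29468, 22604 and 8729 CPM, and at 0 to 76.5 CPM (median 35.0) elsewhere. Both showed the same separation of the groups as vit-2, and the log2 fold change of vit-5 was 9.47 ± 1.61 with an edgeR adjusted p of 0.000201.

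vit-1, another vitellogenin gene of the X chromosome, had widely different levels in the 3 strains. It stood at 8215 CPM in N2, 2108 in 15eh1 and 285 in YPT41 replicate 1, against 1.56 to 16.9 CPM (median 5.47) in the other libraries. The groups were apart, although the level in YPT41 was far below that in N2. Its log2 fold change was 8.47 ± 0.66 over all strains, with an edgeR adjusted p of 1.74e-07, and it was 10.19 within N2, 7.52 within 15eh1 and 6.55 within YPT41. The vitellogenin genes of the X chromosome are similar in sequence, and how reads were divided among them is not given in the sources used here.

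rme-2, the yolk receptor gene, stood at 488, 479 and 282 CPM in replicate 1 of N2, 15eh1 and YPT41, and at 2.15 to 5.34 CPM (median 3.00) in the other 9. The groups did not overlap, and the other 9 libraries were close together. Its log2 fold change was 6.93 ± 0.22, with an edgeR adjusted p of 5.16e-10.

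The 36 genes of the oocyte, eggshell and maternal list were all higher in replicate 1, with a median log2 fold change of 7.18 against -0.12 over all tested genes. Of the 36, 33 reached the count filter in replicates 2 to 4 as well. In 35 of them all 3 libraries of replicate 1 lay above all 9 others, against 28.0% of all tested genes. The smallest log2 fold change was that of cav-1, a caveolin gene, at 1.14. Summed levels were 29654, 25119 and 10405 CPM in N2, 15eh1 and YPT41 replicate 1, and 405 to 563 CPM elsewhere.

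cbd-1, which codes for a chitin-binding eggshell protein, stood at 3988, 3271 and 1232 CPM in replicate 1, and at 4.96 to 18.5 CPM (median 8.48) in the others. Even the lowest library of replicate 1 was far above the highest of the others. It rose by 8.02 ± 0.36 on the log2 scale, with an edgeR adjusted p of 2.21e-09. perm-4, a gene for a component of the eggshell's permeability barrier, stood at 2347, 2431 and 1292 CPM against 0.0309 to 12.3 CPM (median 2.25). On the log2 scale it rose by 9.61 ± 0.94, with an edgeR adjusted p of 1.51e-06. perm-2, another gene of that barrier, stood at 1793, 1937 and 1098 CPM against 0.0617 to 8.26 CPM (median 1.23). Both perm genes separated the groups fully, and perm-2 had a log2 fold change of 9.54 ± 0.91 with an edgeR adjusted p of 1.09e-06.

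nos-2, which codes for a Nanos family RNA regulator handed to the embryo's germ cells, stood at 308 CPM in N2, 197 in 15eh1 and 48.4 in YPT41, and at 0 to 0.434 CPM (median 0.116) (0 to 10 counts) in the other libraries. YPT41 was lowest, as in the sum of the list. It reached the count filter in none of the 9, passed through replicate 1 alone and had to be higher there, so no fold change or test is given. ule-4 stood at 284, 335 and 263 CPM against 0 to 1.22 CPM (median 0.173), and here the 3 strains were close together. The fitted rise on the log2 scale was 9.50 ± 0.73, with an edgeR adjusted p of 1.48e-07.

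All 28 P granule and germline RNA regulators were higher in replicate 1, against 33.5% of all tested genes. All 28 reached the filter in both groups and had all of replicate 1 above the rest, against 28.0% of all tested genes. Their median log2 fold change was 3.63, and the members ran from 1.92 (fbf-2) to 7.76 (gld-1). These transcripts were also present in the other libraries. pgl-1, which codes for a core P granule protein and was named after its values were seen, stood at 159, 156 and 160 CPM in replicate 1, against 10.2 to 33.2 CPM (median 15.8), and the 3 strains were nearly equal. It rose by 3.20 ± 0.26 on the log2 scale, with an edgeR adjusted p of 2.88e-07.

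cgh-1, which codes for a germline RNA helicase that guards stored mRNA, had the highest mean level of the called genes in the list, on a scale that is not per length. It stood at 12531, 8546 and 1642 CPM in N2, 15eh1 and YPT41, and at 82.3 to 140.3 CPM (median 90.6) elsewhere. YPT41 replicate 1 had a much lower level than that of the other strains and still lay above all 9 libraries. On the log2 scale cgh-1 rose by 6.07 ± 0.37, with an edgeR adjusted p of 1.64e-08. gld-1, which codes for a translational repressor of the meiotic germline, stood at 4396, 2699 and 609 CPM against 5.73 to 19.6 CPM (median 8.56). The rise was 7.76 ± 0.40 on the log2 scale, with an edgeR adjusted p of 5.52e-09, and the same order of strains held.

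The meiotic chromosome list, with axis, synapsis and crossover genes, had 32 tested members, all higher in replicate 1, with a median log2 fold change of 4.12. Over all tested genes, 33.5% were higher. Of the 32, 31 reached the count filter in replicates 2 to 4 as well. With upper-quartile scaling or total counts alone, 31 were higher. Here YPT41 was closer to the other strains, with a summed 901 CPM against 1345 in N2 and 1248 in 15eh1. The other libraries summed to 76.4 to 107 CPM. plk-2, the Polo kinase of chromosome pairing, stood at 171, 146 and 81.4 CPM against 4.63 to 9.78 CPM (median 5.89). The fitted rise on the log2 scale was 4.39 ± 0.23, with an edgeR adjusted p of 4.98e-09. him-17, a gene needed for meiotic double-strand breaks, stood at 105, 95.3 and 66.6 CPM against 22.2 to 30.0 CPM (median 24.9). The groups were apart in both genes, and the log2 fold change of him-17 was 1.81 ± 0.16 with an edgeR adjusted p of 4.47e-07.

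Of 61 sperm genes, 41 passed the count filter, and only 5 of these reached it in replicates 2 to 4. The other 36 passed through replicate 1 alone, so their rise was bound to the filter, and the list gives no count as support. The 20 that did not pass had at most 39 counts in a library of replicate 1 and at most 10 in any other. Unlike the yolk and oocyte sums, the summed sperm level was highest in YPT41, at 535 CPM, with 323 in N2 and 231 in 15eh1, against 17.3 to 28.7 CPM elsewhere. fog-1, which commits germ cells to the sperm fate, stood at 53.9, 46.6 and 39.4 CPM in N2, 15eh1 and YPT41 against 2.36 to 6.47 CPM (median 3.52). The groups did not overlap, and its log2 fold change was 3.50 ± 0.27 with an edgeR adjusted p of 1.42e-07.

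spe-15, an unconventional myosin gene used in sperm formation, had another pattern. It stood at 9.81 CPM in N2, 9.53 in 15eh1 and 31.9 in YPT41 replicate 1, against 6.73 to 13.5 CPM elsewhere (median 8.54). YPT41 alone lay above the other libraries. spe-15 rose by 0.85 ± 0.35 on the log2 scale, with an edgeR adjusted p of 0.0470, and without YPT41 replicate 1 the log2 fold change was 0.03 with an adjusted p of 0.933. The members of the msp family, which codes for the major sperm protein, are nearly identical in sequence, so single msp genes are uncertain.

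Genes of DNA replication and mitosis, which dividing germ cells and somatic cells share, were higher in all 32 cases. Their median log2 fold change was 1.95, and the groups overlapped in none. Over all tested genes, 33.5% were higher and 28.0% had all of replicate 1 above the rest. The B-type cyclin gene cyb-3 stood at 2061, 1499 and 473 CPM in replicate 1, against 55.0 to 81.6 CPM (median 58.4). The gap between N2 and YPT41 was wide within replicate 1, and the 9 others were close together. On the log2 scale it rose by 4.32 ± 0.27, with an edgeR adjusted p of 2.09e-08. pcn-1, the gene for the replication clamp PCNA, stood at 1115, 822 and 237 CPM against 65.5 to 121 CPM (median 89.3), with a log2 fold change of 2.91 ± 0.31 and an edgeR adjusted p of 2.87e-06. The cyclin B genes cyb-2.1 and cyb-2.2 were at the top of this list, at 7.26 and 6.84, named after their values were seen.

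Of 20 genes first transcribed in the early embryo, 6 passed the filter, all 6 were higher, and 2 of them reached the filter in replicates 2 to 4, so this count, too, is no support. The endoderm and mesoderm specifying genes end-1, end-3, med-1, med-2 and tbx-35, named here after their values were seen, had at most 11 counts in any library of replicate 1 and at most 17 in any other. tbx-9, a T-box gene, stood at 45.2, 30.7 and 9.94 CPM in replicate 1 against 0 to 1.31 CPM (median 0.608), with the groups apart. The rise was 5.49 ± 0.67 on the log2 scale, with an edgeR adjusted p of 1.06e-05. ref-1, a bHLH gene, stood at 25.1, 19.8 and 2.94 CPM against 0.866 to 3.07 CPM (median 1.66). In YPT41 it lay within the range of the other libraries, and the log2 fold change over all strains was 2.86 ± 0.35, with an edgeR adjusted p of 1.04e-05.

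**Figure D2:**
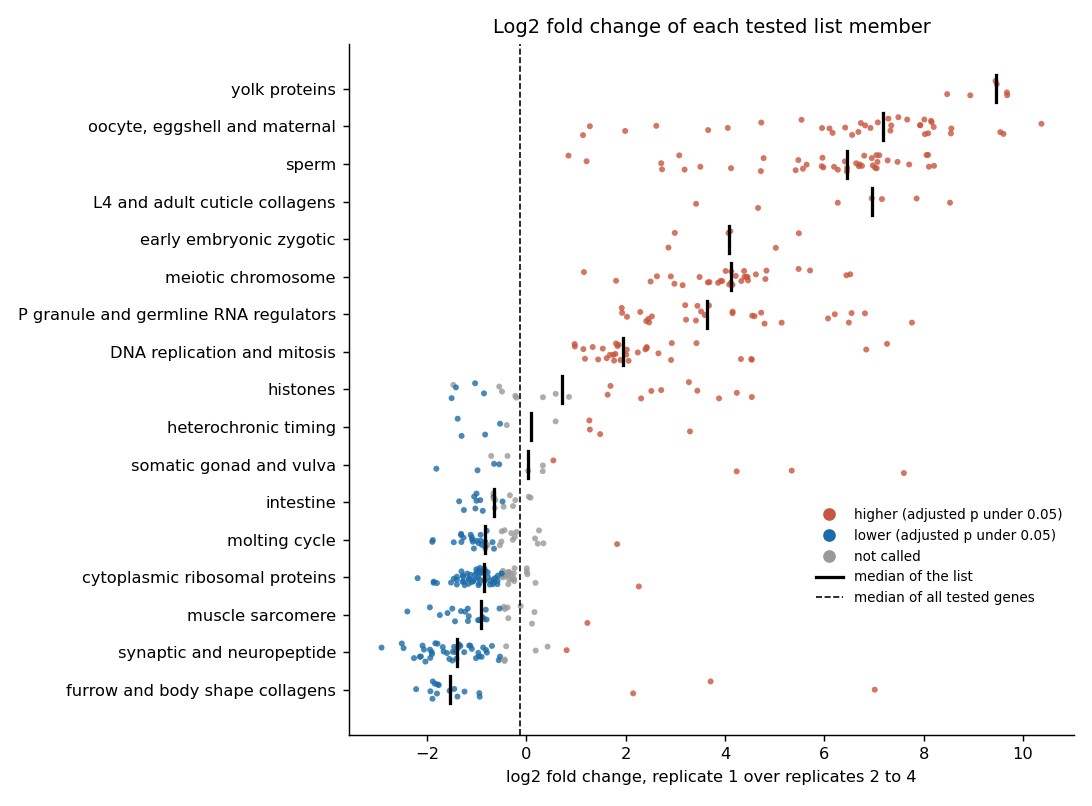
Log2 fold change (horizontal axis, replicate 1 over replicates 2 to 4) of each tested member of the 17 lists, 1 point a gene, red where higher, blue where lower and grey where not called. Black bars mark list medians, from 9.46 for yolk proteins to -1.55 for furrow and body shape collagens, and the dashed line marks the median of all tested genes, -0.12.

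Of 8 collagens of the L4 and adult cuticle, 7 were tested and all 7 were higher in replicate 1, and 4 reached the filter in replicates 2 to 4, so that the count is no support. col-19, the collagen gene used as a marker of the adult cuticle, stood at 863, 690 and 676 CPM in N2, 15eh1 and YPT41 replicate 1, and at 0 to 7.30 CPM (median 1.18) elsewhere. The 3 strains were close together and far above the rest. The fitted rise on the log2 scale was 8.53 ± 0.89, with an edgeR adjusted p of 2.79e-06. bli-1, a gene for a collagen of the adult struts, stood at 284, 39.1 and 107 CPM against 0.0577 to 1.74 CPM (median 0.322), with a log2 fold change of 7.86 ± 0.42 and an edgeR adjusted p of 6.97e-09.

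Of 17 furrow and body shape collagens, 14 were lower in replicate 1 (82.4%, against 31.8% of all tested genes) and 3 were higher. Their median log2 fold change was -1.55. In 11 of the 17 all of replicate 1 lay below the rest, against 19.3% of all tested genes. sqt-3, a body shape collagen, stood at 654, 610 and 868 CPM in replicate 1 and at 907 to 2086 CPM (median 1424) in the others. Its level fell by 0.94 ± 0.24 on the log2 scale, with an edgeR adjusted p of 0.00402. dpy-4 stood at 351, 432 and 724 CPM against 697 to 1945 CPM (median 1030), so that YPT41 overlapped the other group. It fell by 1.25 ± 0.35 on the log2 scale, with an edgeR adjusted p of 0.00738.

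The 3 collagens that went the other way were bli-6, dpy-14 and dpy-17, of which dpy-14 was named after its values were seen. bli-6 stood at 38.3, 9.63 and 159 CPM in N2, 15eh1 and YPT41 replicate 1 against 0 to 0.977 CPM (median 0.199). YPT41 was highest and 15eh1 lowest, and all 3 were above the other 9. It reached the count filter in 2 of the 9 and passed through replicate 1 alone, so its place among the 3 is bound to the filter. dpy-17 stood at 66.8, 30.7 and 154 CPM against 3.24 to 44.1 CPM (median 15.1), with 15eh1 inside the range of the others. On the log2 scale it rose by 2.15 ± 0.44, with an edgeR adjusted p of 0.000817. dpy-14 showed the same order of strains, at 36.8, 18.3 and 94.8 CPM against 0.232 to 7.21 CPM.

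Of 37 molting cycle genes, 22 were lower in replicate 1 (59.5%, against 31.8% of all tested genes), 1 was higher and 14 were not called. Their median log2 fold change was -0.83. In 10 of the 37 all of replicate 1 lay below the rest, against 19.3% of all tested genes. This last count is not read as a result about the list. The other 9 libraries differed much among themselves here, with summed levels of 3830 to 8612 CPM, and replicate 1, at 4247, 2868 and 2911 CPM, overlapped them. mlt-11, a protease inhibitor gene needed for molting, stood at 785, 335 and 383 CPM against 391 to 1506 CPM (median 799). It fell by 0.80 ± 0.23 on the log2 scale, with an edgeR adjusted p of 0.00781, and with no strain term the adjusted p was 0.107. noah-1, an apical extracellular matrix gene, stood at 255, 185 and 222 CPM against 217 to 803 CPM (median 524). It fell by 1.27 ± 0.26 on the log2 scale, with an edgeR adjusted p of 0.000966.

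The 1 molting gene that rose was nhr-23, which codes for a nuclear receptor that drives the molting program. It stood at 245 CPM in N2, 159 in 15eh1 and 58.2 in YPT41 replicate 1 against 19.5 to 58.9 CPM elsewhere (median 36.1). N2 and 15eh1 lay above all others and YPT41 at the top of their range. The rise was 1.83 ± 0.25 on the log2 scale, with an edgeR adjusted p of 3.34e-05.

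The heterochronic genes, which time larval stages, were called in both directions: of 10, 4 were higher (40%), 4 were lower (40%) and 2 were not called. These shares are near the 33.5% and 31.8% of all tested genes, so the counts are no result about the list. The early-acting lin-14 and lin-28, which specify the first larval stages, were lower in replicate 1. lin-14 stood at 35.2, 38.3 and 70.0 CPM against 71.7 to 208 CPM (median 114), and it fell by 1.39 ± 0.31 on the log2 scale, with an edgeR adjusted p of 0.00151. lin-28 stood at 19.1, 20.7 and 31.0 CPM against 32.1 to 74.8 CPM (median 60.3), and it fell by 1.31 ± 0.23 on the log2 scale, with an edgeR adjusted p of 0.000251. In both genes YPT41 replicate 1 was nearest to the other libraries, just below the lowest of them.

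The late-acting lin-29 and its cofactor mab-10, which act in the larval-to-adult switch, were higher. mab-10 stood at 102, 62.7 and 39.9 CPM in N2, 15eh1 and YPT41 replicate 1 against 3.82 to 12.3 CPM (median 5.34). lin-29 stood at 30.7, 24.7 and 15.7 CPM against 5.39 to 14.6 CPM (median 7.38). Both genes separated the groups, with YPT41 lowest of replicate 1. The log2 fold change was 3.29 ± 0.30 for mab-10 and 1.49 ± 0.26 for lin-29, with edgeR adjusted p of 8.51e-07 and 0.000266.

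hbl-1, a Hunchback-like factor of the middle larval stages, stood at 238, 131 and 102 CPM against 31.4 to 86.9 CPM (median 61.9), with the groups apart. The fitted rise on the log2 scale was 1.27 ± 0.22, with an edgeR adjusted p of 0.000281. lin-41, which is also in the oocyte list because it acts in oocyte growth, stood at 494, 464 and 207 CPM against 93.6 to 212 CPM (median 163), and YPT41 lay within that range. It rose by 1.28 ± 0.23 on the log2 scale, with an edgeR adjusted p of 0.000276.

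lin-42, the Period-like gene that is also in the molting list, fell by 0.83 ± 0.21 on the log2 scale, with an edgeR adjusted p of 0.00404, from 254 to 589 CPM in the others to 215, 187 and 182 CPM. dre-1 had a log2 fold change of -0.53 ± 0.21 with an edgeR adjusted p of 0.0399, a call lost under 7 of 19 alternatives (adjusted p up to 0.206). Its groups overlapped, at 77.7, 103 and 61.1 CPM against 54.3 to 149 CPM. daf-12, the nuclear receptor gene of the dauer decision, was not called, with a log2 fold change of 0.59 ± 0.27 and an edgeR adjusted p of 0.0699. Its levels were 251 and 220 CPM in N2 and 15eh1 but 67.0 CPM in YPT41, against 44.4 to 161 CPM elsewhere, and without YPT41 replicate 1 its adjusted p was 0.00857. lin-46 was not called either, at 0.708 to 3.29 CPM against 0.982 to 3.54 CPM.

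**Figure D3:**
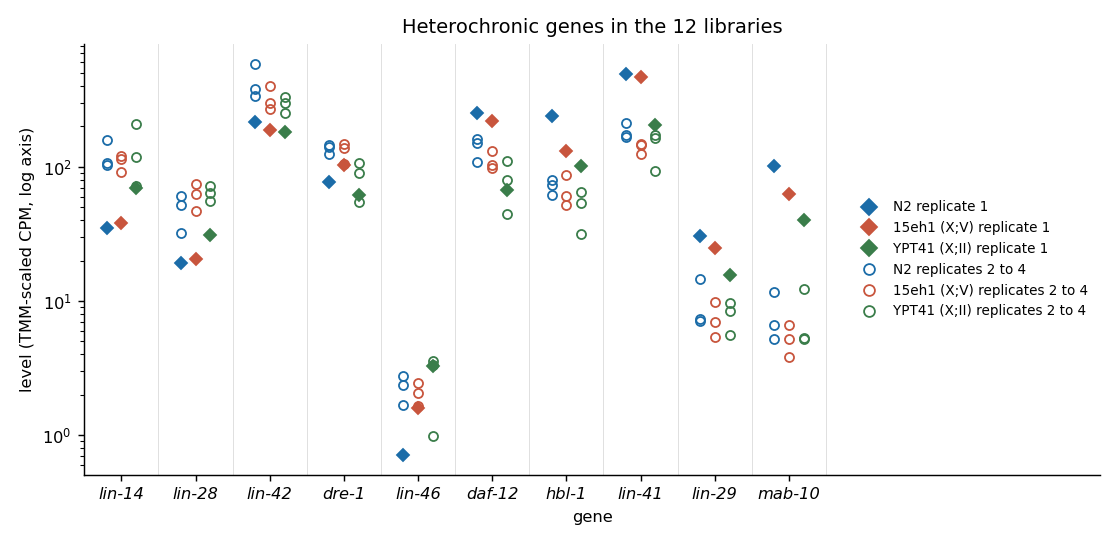
Level of the 10 heterochronic genes (vertical log axis, TMM-scaled CPM) in the 12 libraries, with filled diamonds for replicate 1 and open circles for replicates 2 to 4, coloured by strain. lin-14 and lin-28 lie lower in replicate 1, at most 70.0 and 31.0 CPM, and mab-10 and lin-29 lie higher, at least 39.9 and 15.7 CPM.

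Of 50 synaptic and neuropeptide genes, 48 were analysed. In replicate 1, 42 were lower (87.5%, against 31.8% of all tested genes), 1 was higher and 5 were not called. Their median log2 fold change was -1.40. In 32 of the 48 all of replicate 1 lay below the rest, against 19.3% of all tested genes. Summed levels were 2613, 2877 and 2672 CPM in N2, 15eh1 and YPT41 replicate 1 against 3373 to 8154 CPM elsewhere, so that the 3 strains of replicate 1 were close together. egl-3, a proprotein convertase gene that processes neuropeptides, stood at 547, 537 and 474 CPM against 580 to 1379 CPM (median 882). It fell by 0.80 ± 0.22 on the log2 scale, with an edgeR adjusted p of 0.00624. egl-21, which acts in the next processing step, stood at 299, 302 and 311 CPM against 368 to 1040 CPM (median 578). It fell by 0.95 ± 0.22 on the log2 scale, with an edgeR adjusted p of 0.00229.

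eat-4, which codes for the vesicular glutamate transporter, was among the 6 largest falls of genes with a symbol, no overlap and a mean of at least 10 CPM. It stood at 2.83, 3.51 and 4.41 CPM against 18.1 to 34.7 CPM (median 29.0), and the groups were far apart. It fell by 2.92 ± 0.26 on the log2 scale, with an edgeR adjusted p of 5.60e-07. flp-32, a neuropeptide gene, stood at 0.404, 1.204 and 2.77 CPM against 5.97 to 42.9 CPM (median 8.18). It reached the count filter in only 2 of the libraries of replicate 1, so its fall was partly bound to the filter and no test is given. Of the list, the neuropeptide gene flp-28 alone rose, at 103, 106 and 61.7 CPM against 32.2 to 89.4 CPM, with a log2 fold change of 0.81 ± 0.27 and an edgeR adjusted p of 0.0164. YPT41 overlapped the other libraries there, and with upper-quartile scaling or total counts alone flp-28 did not pass, with adjusted p of 0.207 and 0.0504.

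Of 26 muscle sarcomere genes, 18 were lower (69.2%, against 31.8% of all tested genes), 1 was higher and 7 were not called. Their median log2 fold change was -0.92. myo-2, a pharyngeal myosin gene, stood at 369, 303 and 531 CPM against 1366 to 1708 CPM (median 1501). The other 9 libraries were close together and all far above replicate 1. It fell by 1.95 ± 0.20 on the log2 scale, with an edgeR adjusted p of 1.90e-06. unc-54, the main body wall myosin gene, stood at 6087, 4801 and 6384 CPM against 7066 to 10643 CPM (median 8255). It fell by 0.54 ± 0.19 on the log2 scale, with an edgeR adjusted p of 0.0214, and without N2 or 15eh1 replicate 1 the adjusted p was 0.0783 or 0.115. unc-60, which codes for cofilins of muscle and other tissues, rose instead, at 2265, 1380 and 637 CPM against 459 to 705 CPM. YPT41 lay inside the range of the others, and the log2 fold change over all strains was 1.23 ± 0.26 with an edgeR adjusted p of 0.00113.

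Of 20 intestinal genes, 10 were lower (50.0%, against 31.8% of all tested genes) and none was higher by edgeR. Their median log2 fold change was -0.66. With upper-quartile scaling 17 were lower, with total counts alone 16 and without N2 replicate 1 6, and by DESeq2, too, none was higher. ifb-2, which codes for an intestinal intermediate filament, stood at 234, 346 and 452 CPM against 688 to 1193 CPM (median 848), with the groups apart. It fell by 1.36 ± 0.20 on the log2 scale, with an edgeR adjusted p of 7.02e-05. act-5, the microvillus actin gene, stood at 1415, 1270 and 482 CPM against 1172 to 2863 CPM (median 2063), and N2 and 15eh1 overlapped the others. It fell by 1.05 ± 0.31, with an edgeR adjusted p of 0.00859, and without YPT41 replicate 1 the adjusted p was 0.0809. elt-2, the gene of the main intestinal GATA factor, named after its values were seen, had 18.2, 17.0 and 18.4 CPM against 10.3 to 25.6 CPM.

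The 13 genes of the somatic gonad and vulva went both ways, with 4 higher (30.8%), 4 lower (30.8%) and 5 not called. These shares are near the 33.5% and 31.8% of all tested genes. Of the 13, 10 reached the count filter in replicates 2 to 4, so the count of higher genes was partly bound to the filter and is no support. inx-8, a gonad sheath innexin gene, stood at 70.5, 72.0 and 42.03 CPM against 0.111 to 0.869 CPM (median 0.278). It reached the count filter in 1 of the 9 and passed through replicate 1 alone, so no fold change or test is given. egl-13, a SOX gene of the uterine lineage, stood at 80.6, 66.3 and 35.3 CPM against 28.4 to 46.4 CPM, with a log2 fold change of 0.54 ± 0.18 and an edgeR adjusted p of 0.0157. It did not pass with upper-quartile scaling or total counts alone, at adjusted p of 0.584 and 0.344. ceh-18, a sheath cell homeobox gene, was lower, at 36.4, 33.3 and 32.1 CPM against 37.5 to 58.5 CPM, and so was ipp-5, a gene for an inositol phosphatase of the spermatheca, at 15.3, 14.8 and 14.6 CPM against 24.3 to 36.8 CPM. They fell by 0.55 ± 0.15 and by 0.99 ± 0.18, with edgeR adjusted p of 0.00639 and 0.000361.

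Of 74 tested ribosomal protein genes, 53 were lower (71.6%, against 31.8% of all tested genes), 1 was higher and 20 were not called. Their median log2 fold change was -0.85. Their summed level was 71607, 72553 and 99028 CPM in N2, 15eh1 and YPT41 replicate 1 against 100649 to 179573 CPM elsewhere. rpl-4 stood at 1475, 1778 and 3810 CPM against 3417 to 6177 CPM (median 4511), with YPT41 inside the range of the others. It fell by 1.07 ± 0.26 on the log2 scale, with an edgeR adjusted p of 0.00284. rpl-6 stood at 1888, 2117 and 2512 CPM against 2367 to 4488 CPM (median 3130). It fell by 0.58 ± 0.20 on the log2 scale, with an edgeR adjusted p of 0.0205, which was 0.0618 without N2 replicate 1 and 0.104 without 15eh1 replicate 1.

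The exception was rpl-11.1, a gene on chromosome V with a paralogue, rpl-11.2, on the X chromosome. rpl-11.1 stood at 322, 255 and 436 CPM against 35.4 to 99.3 CPM (median 65.7), and its log2 fold change was 2.26 ± 0.26 with an edgeR adjusted p of 6.89e-06. rpl-11.2, named after its values were seen, stood at 289, 390 and 743 CPM against 1273 to 2269 CPM (median 1556), and it fell by 1.87 ± 0.25 on the log2 scale, with an edgeR adjusted p of 2.21e-05. In each of the pair the groups did not overlap, in opposite directions. Reads shared between near-identical copies may be split between them.

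Of 70 histone genes, 22 were tested, of which 10 were higher (45.5%), 4 were lower (18.2%) and 8 were not called. Over all tested genes the shares were 33.5% and 31.8%. Of the 22, 20 reached the count filter in replicates 2 to 4. With upper-quartile scaling 8 of the histone genes were lower. his-74, an H3.3-type histone gene on chromosome V, stood at 598, 451 and 147 CPM against 12.1 to 30.1 CPM (median 16.6). The rise was 4.54 ± 0.35 on the log2 scale, with an edgeR adjusted p of 1.58e-07. his-71, an H3.3 gene on the X chromosome, stood at 85.7, 101 and 131 CPM against 164 to 484 CPM (median 183). It fell by 1.03 ± 0.25 on the log2 scale, with an edgeR adjusted p of 0.00286. his-60 also rose, with a log2 fold change of 1.64 ± 0.27 and an edgeR adjusted p of 0.000171. his-24, a linker histone gene on the X chromosome, fell by 0.85 ± 0.30 on the log2 scale, with an edgeR adjusted p of 0.0216, and without YPT41 replicate 1 that p was 0.153.

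X-linked genes were lower in replicate 1 more often than autosomal genes. Of 2095 tested X genes, 300 were higher (14.3%) and 999 were lower (47.7%), and of 11761 autosomal genes 4373 were higher (37.2%) and 3405 were lower (29.0%). The median log2 fold change was -0.61 on the X chromosome and 0.02 on the autosomes. It was -0.67, -0.62 and -0.62 on the X chromosome within N2, 15eh1 and YPT41, of which the latter strains carry the X chromosome fused to an autosome. Among the autosomes, chromosome I had the largest share of genes that rose (46.4%), and chromosome V the smallest (25.2%).

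The mean log2 CPM of X genes minus that of autosomal genes was -0.59 in N2, -0.55 in 15eh1 and -0.52 in YPT41 replicate 1. In the other 9 libraries it was 0.04 at the lowest, 0.13 at the median and 0.27 at the highest. The groups did not overlap, and the means were -0.55 ± 0.03 (SD, n = 3) and 0.14 ± 0.08 (SD, n = 9). The difference of -0.69 had an exact two-sided permutation p of 0.00909, the smallest that 3 against 9 libraries allow, and 0.0364 when adjusted over this and the 3 other library values. Libraries were permuted without strain as a block, unlike in the gene fit. Permuting within strains, which was not done, would leave fewer arrangements and so a larger smallest p. Without the genes of all lists the difference was -0.67, and over genes that reached the count filter in both groups, an alternative chosen after seeing the data, it was -0.69.

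The share of all gene counts taken by the X chromosome was not lower in replicate 1. It was 15.9% in replicate 1 of both N2 and 15eh1 and 13.8% in that of YPT41, against 13.6% to 14.4% in the other libraries. Of the 6 vitellogenin genes, 5 are on the X chromosome. The X genes with the highest mean CPM among those that rose were vit-2, vit-5 and osm-11, which codes for a secreted Notch ligand. osm-11 stood at 1178, 1213 and 1124 CPM against 649 to 1435 CPM, an overlap made by 1 library, YPT41 replicate 4. The fitted rise on the log2 scale was 0.58 ± 0.20, with an edgeR adjusted p of 0.0201, and it did not pass under 9 of 19 alternatives.

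Among X genes that fell, the highest mean CPM was that of F46H5.3, eef-1A.2 and pdi-2. eef-1A.2, a translation elongation factor gene, stood at 1987, 2352 and 1239 CPM against 2203 to 4555 CPM (median 3452). It fell by 0.92 ± 0.21 on the log2 scale, with an edgeR adjusted p of 0.00180. Its autosomal paralogue eef-1A.1, named after its values were seen, had a log2 fold change of -0.18 ± 0.19 and an edgeR adjusted p of 0.411. pdi-2, a protein disulfide isomerase gene, stood at 2085, 1612 and 1230 CPM against 2043 to 4138 CPM (median 2874), and it fell by 0.82 ± 0.20 on the log2 scale, with an edgeR adjusted p of 0.00297. F46H5.3 stood at 2255, 2188 and 2537 CPM against 2757 to 6251 CPM, and it fell by 0.63 ± 0.25, with an edgeR adjusted p of 0.0431 that was lost under 9 of 19 alternatives.

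**Figure D4:**
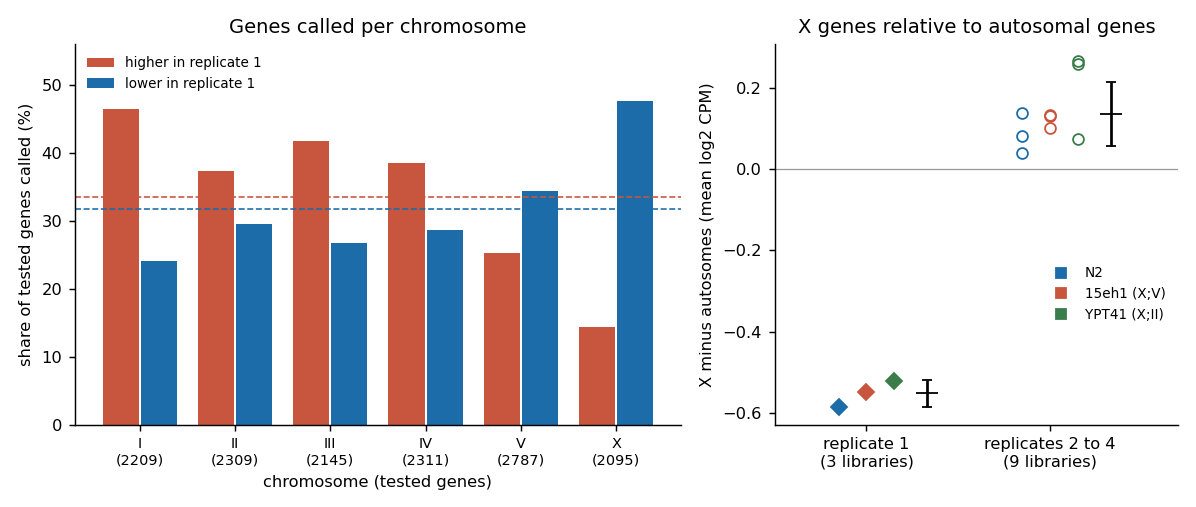
Left, share of tested genes of each chromosome that were higher (red) or lower (blue) in replicate 1, with dashed lines for all tested genes (33.5% and 31.8%). Right, mean log2 CPM of X genes minus autosomal genes in each library, coloured by strain, with the mean and SD in black, -0.55 for replicate 1 and 0.14 for the other 9 libraries.

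By the same rule the other large falls, besides flp-32, were those of gst-19, col-117, clec-17 and spp-23. gst-19, a glutathione S-transferase gene, stood at 0.708, 0.903 and 0.778 CPM against 1.72 to 25.0 CPM (median 8.98). It, too, reached the count filter in only 2 of the libraries of replicate 1, and no test is given. The collagen gene col-117 stood at 1.31, 2.51 and 7.61 CPM against 21.7 to 56.4 CPM (median 25.4), and it fell by 3.20 ± 0.50 on the log2 scale, with an edgeR adjusted p of 9.38e-05. The rule itself required the groups to be apart in all 4 genes. clec-17, a C-type lectin gene, and spp-23, a saposin-like gene, fell by 2.94 ± 0.57 and 2.87 ± 0.53 on the log2 scale, with edgeR adjusted p of 0.000567 and 0.000360.

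The change from replicates 2 to 4 to replicate 1 was also fitted strain by strain. Within a strain, 1 library stood against 3 and was assumed to vary like the others. By edgeR, 6821 genes (48.5%) were called in N2, 6185 (44.0%) in 15eh1 and 4404 (31.3%) in YPT41. These comparisons use separate libraries but come from the same fit, with a shared spread, scaling and count filter, so they are not independent of each other. The test of the difference between strains called 0 genes by edgeR for 15eh1 minus N2, with 236 genes at an unadjusted p under 0.05. It called 0 for YPT41 minus N2, with 2036 at an unadjusted p under 0.05, but 50 without YPT41 replicate 2 and 203 without YPT41 replicate 4. With 1 library of replicate 1 per strain, strain and library cannot be told apart.

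List medians within the strains are given side by side, without a test. YPT41 had lower ones for oocyte genes (median 6.46, against 7.64 in N2 and 7.27 in 15eh1), for P granule genes (3.47, against 3.96 and 3.83) and for replication genes (1.47, against 2.20 and 2.08). It had a higher one for L4 and adult collagens, with a median of 8.71 against 5.98 in N2 and 4.33 in 15eh1. Of these 7 collagens only 4 reached the count filter in replicates 2 to 4, so these medians are no support. The summed level of the list in replicate 1 was not highest in YPT41, at 1275 CPM against 1308 in N2 and 767.5 in 15eh1. For neuronal genes the 3 medians were -1.56 in N2, -1.34 in 15eh1 and -1.45 in YPT41. For furrow collagens they were -2.07, -1.79 and -0.74, with YPT41 nearest to 0.

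Some of the adult transcripts were present at trace levels in part of the other 9 libraries. Yolk transcripts stood at 0.107% and 0.183% of the level of replicate 1 of their own strain in N2 replicates 2 and 3, and at 0.00296% in N2 replicate 4. In 15eh1 they stood at 0.271% and 0.279% in replicates 2 and 3, and at 0.00330% in replicate 4. In YPT41 they stood at 0.359% in replicate 3, 0.0185% in replicate 4 and 0.00421% in replicate 2. The 5 libraries with the higher traces were thus replicates 2 and 3 of N2 and 15eh1 and replicate 3 of YPT41. Within the list, vit-1 divided the libraries far less, at 6.16, 11.2 and 3.76 CPM in N2 replicates 2, 3 and 4.

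perm-4 showed the same division within N2 and 15eh1. It stood at 2.68 and 4.29 CPM in N2 replicates 2 and 3 but at 0.0309 CPM (1 count) in replicate 4. In 15eh1 it stood at 5.18 and 12.3 CPM in replicates 2 and 3 but at 0.199 CPM (6 counts) in replicate 4. In YPT41, perm-4 stood at 2.25 and 1.68 CPM in replicates 3 and 4, close together, and at 0.111 CPM (2 counts) in replicate 2. Levels under 3 counts could not be told from 0. Summed over their members, the other lists did not divide the libraries of every strain as the yolk genes did. Some members did so within N2 and 15eh1, such as perm-4 and col-19. In N2 replicates 2, 3 and 4, col-19 stood at 1.09, 3.85 and 0.185 CPM, and in 15eh1 at 2.05, 7.30 and 0.132 CPM. The yolk receptor gene rme-2 did not, at 2.97, 4.13 and 2.99 CPM in N2 replicates 2, 3 and 4. L4 and adult collagens stood at 0.199%, 0.859% and 0.403% in N2 replicates 2, 3 and 4, and at 0.105%, 0.286% and 0.458% in those of YPT41. In 15eh1 they stood at 0.676%, 1.35% and 0.405%, with replicates 2 and 3 above replicate 4, as for yolk but less far apart. The oocyte list was even across N2, at 1.73% to 1.82%. Meiotic genes stood at 6.12% to 11.2% of the level of replicate 1 of the strain in all 9. The source of the traces was not tested.

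**Figure D5:**
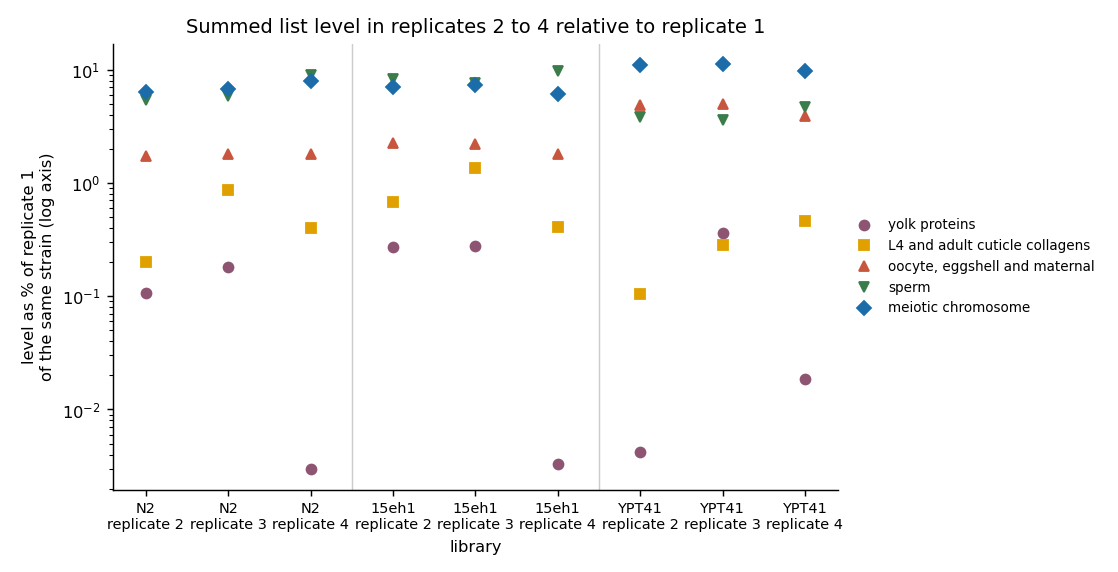
Summed level of 5 gene lists in each of the 9 libraries of replicates 2 to 4, as a percentage of replicate 1 of the same strain (vertical log axis), with 1 symbol for each list. Meiotic genes stay between 6.12% and 11.2%, while yolk transcripts range from 0.00296% to 0.359%.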

How the data were processed

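The authors deposited raw counts per gene in 12 files, 1 for each RNA-seq library. The submitters' processing notes name TopHat2 2.1.1, SAMtools 1.6, Bowtie 1.2.0, CASAVA 1.8, MACS 1.4.3, bedtools and HTSeq without saying which made these counts. No source used here gives the annotation, the genome build or the use of strand, so overlapping, antisense and near-identical genes are uncertain. The summary lines for reads without a feature or a unique position were removed, and 0 per-sample columns were left unused. Of 20389 gene identifiers, 510 had no match in the RefSeq locus table (WBcel235), from which symbols and chromosomes were taken. Of 4 marker identifiers given for the yolk and oocyte check, 3 were found, and vit-5 was taken from its own locus. The mitochondrial share was not computed.

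Genes with about 10 counts in at least 3 libraries were tested with edgeR 4.0.16 (R 4.3.3), with TMM scaling, strain as a block and a quasi-likelihood test of replicate 1 against replicates 2 to 4, adjusted by the Benjamini-Hochberg method at 0.05. Principal components used log2 CPM with a prior count of 2. The fit was tested on simulated data in which few genes changed, with as many raised as lowered. Far more genes were called here, so that test does not bear on the scaling of these libraries. Library values were compared by exact two-sided permutation tests in SciPy 1.17.1 (Python 3.11.15), without strain as a block, adjusted over 4 values. Alternatives were RLE, upper-quartile and total-count scaling, no count filter, DESeq2 1.42.0, no strain term and leaving out libraries. The comparison and the gene lists were chosen with earlier results of these data known, so p-values are not independent evidence. Genes named were 3 vitellogenin genes and rme-2, the 2 most abundant called members of each list in the direction of its median and up to 2 in the other direction, the 6 largest rises and falls, 3 X-linked genes in each direction and all heterochronic genes. Other genes were named after their values were seen.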

Additional observations from a re-analysis of the deposited data

Results flagged for a closer look

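In each of 89 sets of 9 values from replicates 2 to 4, the gap between an extreme library and its neighbour was set against the whole range, and in 16 the gap passed Dixon's critical value for 9 samples. Chance flags about 1 in 20 groups, and these sets share the same 9 libraries. In 8 of the 16 the library that stood apart was YPT41 replicate 4, always above the others. It held his-71 at 484.0 CPM (next 247.0), his-74 at 30.1 (next 20.6), flp-32 at 42.9 (next 15.9) and clec-17 at 231.0 (next 84.8). It also held osm-11 at 1434.8 CPM (next 1011.7), F46H5.3 at 6251.0 (next 3823.1), the summed histone list at 3029.7 (next 1773.7) and the summed intestinal list at 31460.4 (next 19822.6).

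15eh1 replicate 3 stood above the others for perm-4, at 12.3 CPM (next 5.18), for inx-8, at 0.869 (next 0.38), and for nos-2, at 0.434 (next 0.219). 15eh1 replicate 2 did so for cgh-1, at 140.0 CPM (next 110.0), and YPT41 replicate 2 for dpy-17, at 44.1 (next 19.9). N2 replicate 4 did so for lin-42, at 589.0 CPM (next 401.0), for lin-29, at 14.6 (next 9.8), and for pdi-2, at 4137.7 (next 3070.0).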

How the results depend on the processing

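No paired analysis was possible because the replicate number itself defines the groups compared. Leaving out 1 library at a time gave 7698 to 9693 called genes (4243 to 4765 higher, 3380 to 4928 lower), of which 3519 to 3883 were higher and 2560 to 3555 lower by at least 2-fold. Upper-quartile scaling gave 4881 genes lower by at least 2-fold, against 3182. The difference of the replicate 1 contrast called 0 to 203 genes for YPT41 minus N2 and 0 for 15eh1 minus N2, also with RLE scaling. The X-minus-autosome difference of library means (main value -0.69) was -0.70 to -0.67 with 1 library left out, -0.73 with a prior count of 0.5 and -0.65 with a prior count of 5. The difference of X and autosomal medians was -0.67 to -0.60, with -0.67 without YPT41 replicate 2 (main value -0.63). Of 68 named genes, 66 were called, and 65 had a test in all 19 alternatives, of which 50 kept their direction and their side of the threshold throughout. The call was lost in at least 1 alternative for 13: spe-15, mlt-11, dpy-4, egl-13, egl-3, flp-28, unc-54, act-5, dre-1, rpl-6, his-24, osm-11 and F46H5.3. lin-46, not called, turned from -0.40 to 0.02715 without N2 replicate 1 and was -0.91 without YPT41 replicate 1. The median of the somatic gonad and vulva list minus that of all genes turned from 0.15 to -0.000404 without YPT41 replicates 3 and 4. The number of intestinal genes called lower ran from 6 to 17 over the alternatives, of ribosomal protein genes from 39 to 69, and of histone genes from 3 to 8. DESeq2 gave no adjusted p for the other 3, vit-2, vit-5 and vit-6. The causes were not tested. Levels under 3 counts in a library could not be told from 0.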

Other observations

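Grouped by gene name, 64 classes had at least 20 tested genes, and the classes given here were chosen after their values were seen. Of 25 nuclear pore genes (npp), 24 were higher in replicate 1, against 33.5% of all tested genes. Of 28 bath genes, which code for BTB and MATH domain proteins, 18 were higher. Of 33 globin genes (glb), 31 were lower, against 31.8% of all tested genes. Of 30 guanylyl cyclase genes (gcy), many of them expressed in sensory neurons, 24 were lower and none was higher by edgeR. Of 36 potassium channel genes (twk) 26 were lower, of 35 glutathione S-transferase genes (gst) 25 were lower, and of 192 nuclear receptor genes (nhr) 98 were lower and 6 were higher.

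Chromatin regulators with a maternal role in the germline, also chosen after seeing their values, were higher in replicate 1. The log2 fold change was 1.65 ± 0.14 for mes-2, 1.31 ± 0.31 for mes-3, 2.54 ± 0.20 for mes-4 and 1.69 ± 0.18 for mes-6. Genes of the dosage compensation complex, which acts on the X chromosome of hermaphrodites, went both ways. The split is not read as a result about that complex, because roles of its members outside it were not considered. dpy-27 fell by 0.89 ± 0.21 on the log2 scale, with an edgeR adjusted p of 0.00201. capg-1, dpy-26, dpy-28 and mix-1 rose, with log2 fold changes of 1.87 ± 0.18, 1.07 ± 0.16, 0.83 ± 0.27 and 0.66 ± 0.18. Their edgeR adjusted p were 9.99e-07, 5.83e-05, 0.0172 and 0.00486. The groups were apart for capg-1 and dpy-26 but overlapped for dpy-28 and mix-1. With upper-quartile scaling the 4 log2 fold changes were 1.43, 0.64, 0.39 and 0.23, and that of dpy-27 was -1.31. sdc-2, sdc-3 and dpy-21 were not called, at -0.19, -0.08 and -0.32.

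The Notch receptor gene of the germline, glp-1, had a log2 fold change of 4.73 ± 0.21, while its somatic paralogue lin-12, at -0.16 ± 0.24, was not called (edgeR adjusted p of 0.561). In all, 254 genes had at least 1 CPM in all 3 libraries of replicate 1 and at most 3 counts in each of the other 9, and 12 of them (4.72%) were on the X chromosome, against 14.9% of all tested genes. The rule itself selects genes that are high in replicate 1. The reverse held for 8 genes, 1 of them on the X chromosome.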
